A study of Mus musculus with 12 samples.

Results

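Macrophage and myeloid genes were followed in the dermis of newborn mice, at 2 body sites and 2 ages. They are 34 genes used to recognise macrophages and monocytes, and a gene was taken where a probe set of the array was annotated to its symbol alone. All 34 had such probe sets, 57 of the 45101 probe sets on the array, and they make up 34 of the 18193 genes measured in this way. The mice were C57Bl6/CBA F1, and the labels name no transgene or treatment. There were 3 arrays in each of 4 groups: tail dermis at 1 day after birth (P1 Tail, replicates 4, 5 and 6), back dermis at 1 day (P1 Back, replicates 1, 5 and 6), tail dermis at 5 days (P5 Tail, replicates 2, 3 and 4) and back dermis at 5 days (P5 Back, replicates 1, 2 and 3). The labels name the tissue as tail skin or back skin, and the protocol, written for P1, states that RNA of triplicate mice was taken from dermis, so each array was counted as 1 mouse. Tail skin was loosened in EDTA and back skin in dispase-trypsin before the dermis was peeled off and digested to single cells, so that body site and solution cannot be told apart.

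Every value below is a log2 value that has been centred on the median of its probe set over the 12 arrays, so that 0 is the middle array for that probe set. Differences between arrays can be read from such values, but levels cannot, and neither the abundance of a macrophage gene nor the order of genes by abundance can be given, and markers of dermis could not be checked as present or absent. The labelled site was checked against Hox genes, which keep the position of a cell along the body axis. The mean of 10 posterior Hox genes lay between -0.83 and -0.67 on the 6 arrays labelled tail and between 0.70 and 0.83 on the 6 labelled back, and 7 of the 10 were lower on the arrays labelled tail at each age (limma, adjusted p under 0.05). Hoxc8, a Hox gene of the trunk, was higher on the arrays labelled tail by 2.78 at P1 and 2.93 at P5. These directions go against the labels. The 8 adipocyte markers were all higher on the arrays labelled tail at P1, with a median difference of 2.68. This is the opposite of the direction that the study gives for fat cell genes. The groups were not exchanged, and "tail" and "back" below are the labels of the arrays. P5 Tail replicate 2 stood apart, with an SD over probe sets of 0.50 against 0.23 to 0.34 on the other 11 arrays. Cartilage markers were high on P1 Back replicates 1 and 6 and P5 Back replicate 3, and counts are also given without these arrays. That fit leaves P1 Back with 1 array and P5 Back with 2, and the lone P1 Back array is assumed to vary like the other groups.

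Dermal macrophages are settled in the skin before birth from embryonic precursors and are later joined by cells that come from blood monocytes. They take up debris and pathogens through scavenger, lectin and Fc receptors, break it down in lysosomes, and depend on signals through the receptor Csf1r for their survival. Their identity is set by the transcription factor PU.1, the product of Spi1, together with factors of the Irf, C/EBP and AP-1 families. In skin these cells lie among fibroblasts and vessels, and they take part in wound repair, the setting that the study addressed.

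Promoter sequence is shown because members with binding motifs of these factors are found both among those that fell and among those that passed no test. RefSeq promoters (GRCm38.p6) of 300 bases, 250 before the transcription start and 50 after it, were given for 25 of the 34 members, and both strands were searched. The PU.1 motif GAGGAAGT was present in 5 of these 25 genes (20%), against 3.69% of all 27025 genes with a promoter. In each stretch of 30 bases the motif, or its reverse complement, is in capitals.
Pf4, chr5:90772414-90772443, plus strand: ttctgcagagcACTTCCTCatcctgtatcc
F13a1, chr13:37049181-37049210, minus strand: cgagtccttttGAGGAAGTacccagaggca
Cd53, chr3:106790125-106790154, minus strand: cactcagtctcACTTCCTCactcttctcgc
C1qc, chr4:136893091-136893120, minus strand: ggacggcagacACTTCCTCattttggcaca
Ctss, chr3:95526773-95526802, plus strand: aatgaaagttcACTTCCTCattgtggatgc

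In Pf4 the motif ended 3 bases before the transcription start, in Ctss it spanned the start, in F13a1 and Cd53 it lay 14 and 6 bases after it, and in C1qc it began 195 bases before it. The composite element, GGAA and GAAA with any 2 bases between them, on which PU.1 and an Irf factor can bind side by side, was present in 4 of the 25 genes (16%, against 3.16% of all genes), none of which had the PU.1 motif above.
Folr2, chr7:101857307-101857336, minus strand: taaatcaccaGGAAGTGAAActcttcaatg
Fcgr2b, chr1:170976087-170976116, minus strand: gaccgtttctTTTCACTTCCccatttggac
Cybb, chrX:9469302-9469331, minus strand: aagctgctgtTTTCATTTCCtcatcagaag
Cd68, chr11:69666128-69666157, minus strand: aagtgaggctTTTCATTTCCtcttccaaga

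The AP-1 motif TGANTCA was present in 5 of 25 genes (20%, against 8.97%), namely Cd68, Cybb, Folr2, Ms4a7 and Trem2. The C/EBP motifs TTGCGCAA and TTGCAAT were found in none of the 25, and are present in 0.207% and 2.55% of all genes. Of the genes whose sequence is shown, Pf4, F13a1, Cd53 and Folr2 fell with age in tail dermis, and C1qc, Ctss, Fcgr2b, Cybb and Cd68 did not pass the test in any comparison. A match is a description of these letters in this window, and binding was not measured.
Because Pf4 fell most, the 250 bases before its start are given, with the same motif in capitals (chr5:90772185-90772434, plus strand).
Pf4 upstream: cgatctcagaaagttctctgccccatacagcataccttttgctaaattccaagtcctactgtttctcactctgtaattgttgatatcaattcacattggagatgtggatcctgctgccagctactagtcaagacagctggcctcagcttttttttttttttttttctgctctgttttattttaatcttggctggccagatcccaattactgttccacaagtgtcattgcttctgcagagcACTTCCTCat

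As a group, the members were lowest on the P5 arrays labelled tail. The mean over the 34 genes was 0.28, 0.20 and 0.07 on the P1 Tail arrays and 0.12, -0.08 and 0.02 on the P1 Back arrays. At P5 it was -0.12, -0.55 and -0.34 on the Tail arrays and -0.05, 0.06 and 0.08 on the Back arrays. All 3 P5 Tail arrays thus lay below the other 9, and the remaining groups were close to one another, with P1 Tail and P1 Back overlapping. In bulk dermis, fewer macrophages and less RNA of these genes per macrophage cannot be told apart.

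**Figure D1:**
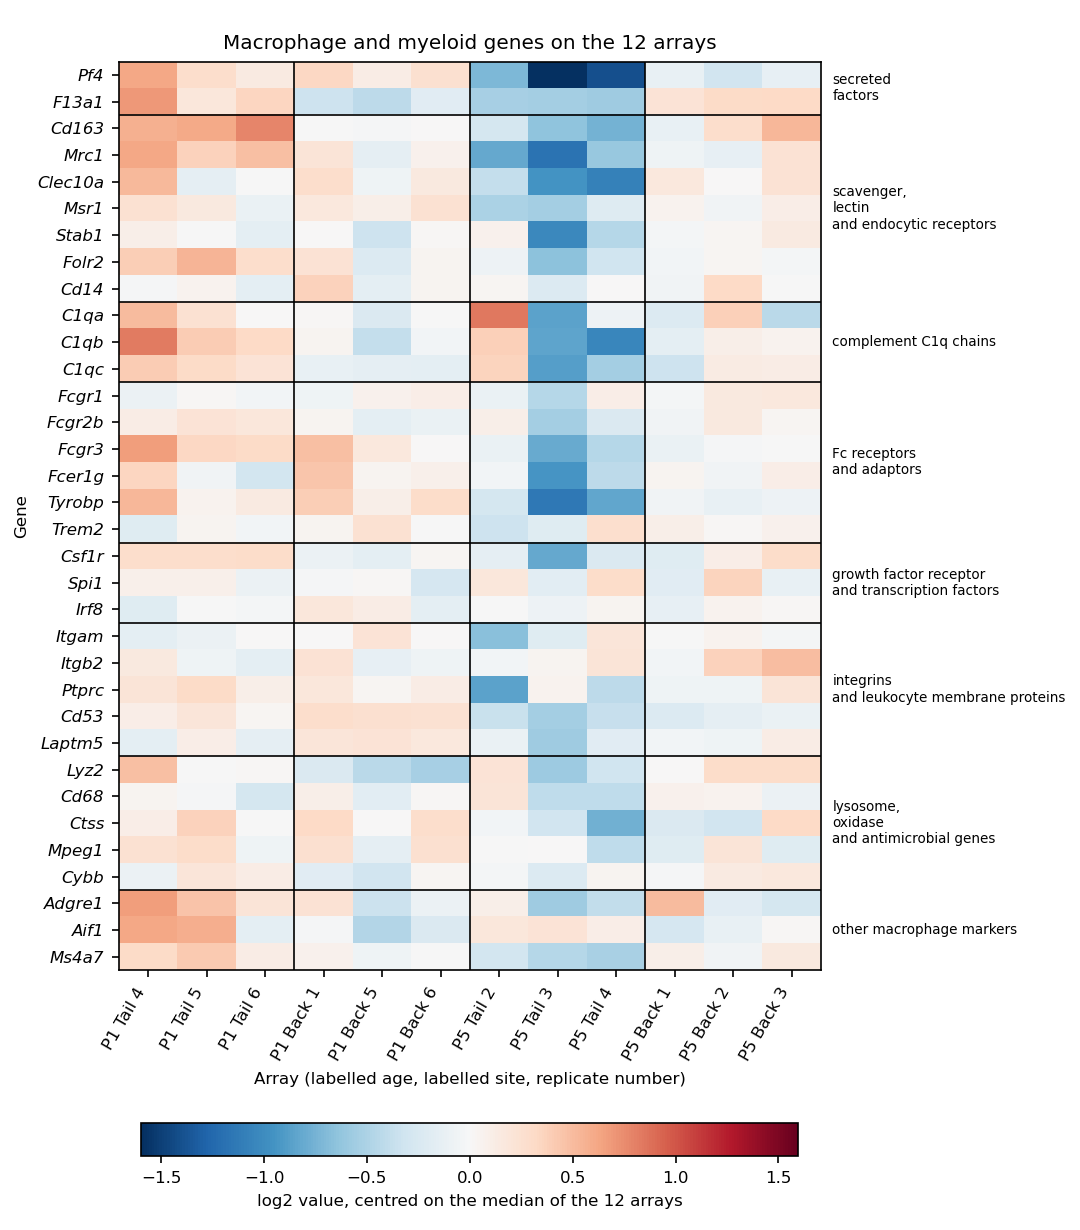
Centred log2 values of the 34 genes (rows, grouped by role) on the 12 arrays (columns, by labelled age, labelled site and replicate number), from blue (low) to red (high). The 3 P5 Tail columns are blue for most genes, with Pf4 at -1.60 on replicate 3, while the C1q genes are red on P5 Tail replicate 2.

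From P1 to P5 in tail dermis, 12 of the 34 genes fell and none rose (limma, adjusted p under 0.05 over all genes), where 5.30% of all genes were called, 1.96% as lower and 3.34% as higher. The largest falls were in Pf4, Mrc1, Cd163, Tyrobp, F13a1 and Clec10a. The median log2 difference of the members was -0.49 against 0.04 over all genes, 31 of 34 were below 0 (42.8% of all genes), and in 16 of 34 the 3 P5 arrays lay wholly below the 3 P1 arrays (8.34% of all genes), and in 0 wholly above (11.1%). At an unadjusted p under 0.05, 19 members were lower and 0 higher (8.83% and 11.8% of all genes). Without 1 array at a time the count lay between 8 (without P1 Tail replicate 4, 2.59% of all genes called) and 15 (without P5 Tail replicate 2, 4.15%). It was 5 when only the 6 tail arrays were fitted (1.73%). Without the 3 back arrays with high cartilage markers, which changes only the pooled spread here, it was 9 (2.52% of all genes called), with Clec10a, Csf1r and Msr1 lost.

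At P5, 7 genes were lower in arrays labelled tail than in arrays labelled back and none was higher, where 6.91% of all genes were called, 2.61% as lower and 4.30% as higher. These were Pf4, Clec10a, Mrc1, F13a1, Cd163, Ms4a7 and Msr1. The median difference was -0.32 against -0.02 over all genes, 30 of 34 were below 0 (53.7% of all genes), and in 11 the tail arrays lay wholly below the back arrays (9.58% of all genes) and in 1, Aif1, wholly above (11.0%). At an unadjusted p under 0.05, 17 members were lower and 0 higher (9.64% and 10.6% of all genes). Of all genes, 7.11% were called without P5 Tail replicate 2 and 4.32% without P5 Back replicate 3. The count was 12 without P5 Tail replicate 2, 4 without P5 Back replicate 3, and 1, F13a1, without the 3 arrays with high cartilage markers (median -0.31, 2.38% of all genes called), a choice made after seeing the data.

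At P1, F13a1 and Cd163 were higher in arrays labelled tail and no member was lower, where 3.97% of all genes were called, 2.06% as higher and 1.91% as lower. The P1 median was 0.10 against -0.04 over all genes, 14 of 34 members were below 0 (59.3% of all genes), and the 2 called of 34 are close to the share of all genes. In 10 members the tail arrays lay wholly above the back arrays and in 2 wholly below (12.6% and 17.6% of all genes), and at an unadjusted p under 0.05, 9 were higher and 0 lower (6.34% and 8.11%). Without 1 P1 array at a time, 2.12% to 4.34% of all genes were called. The count was 1 without any of the P1 arrays other than P1 Tail replicate 6, and 0 with the single P1 Back array left once those with high cartilage markers were out, where the median was 0.24 and 0.467% of all genes were called.

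From P1 to P5 in back dermis, F13a1 rose and Cd53 fell, where 4.25% of all genes were called, 2.22% as higher and 2.03% as lower. The median difference was 0.01, equal to that of all genes at this precision, and 17 of 34 genes were below 0 (48.2% of all genes). In 5 genes the P5 arrays lay wholly below the P1 arrays and in 2 wholly above (13.6% and 14.4% of all genes), and 2 were lower and 2 higher at an unadjusted p under 0.05 (6.80% and 6.62%). The count was 0 without replicate 1 or 5 of P1 Back or replicate 2 or 3 of P5 Back (2.08% to 2.65% of all genes called). It was 1 without the remaining back arrays in turn (2.15% and 2.91%). With that single P1 Back array it was 0, where 0.0934% of all genes were called and the median was 0.09.

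The change with age was then compared between the sites as an interaction, the tail change minus the back change. It was below 0 for 5 genes, F13a1, Cd163, Mrc1, Pf4 and Ms4a7, and above 0 for none, where 2.87% of all genes were called, 0.940% below 0 and 1.93% above. Its median over the members was -0.45 against 0.02 over all genes, and 32 of 34 members were below 0 (46.2% of all genes). At an unadjusted p under 0.05, 17 members were below 0 and 0 above (6.01% and 8.36% of all genes). Without 1 array at a time, 1.31% to 4.02% of all genes were called, and 3.28% without P5 Tail replicate 2. The count was 3 without P1 Back replicate 5 or 6 or P5 Back replicate 1 or 3, 13 without P5 Tail replicate 2, and 1, F13a1, with the single P1 Back array, where the median was -0.55 and 0.242% of all genes were called. The tail and back comparisons at one age, and the 2 ages at one site, use the same arrays, so these counts are not independent of one another.

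**Figure D2:**
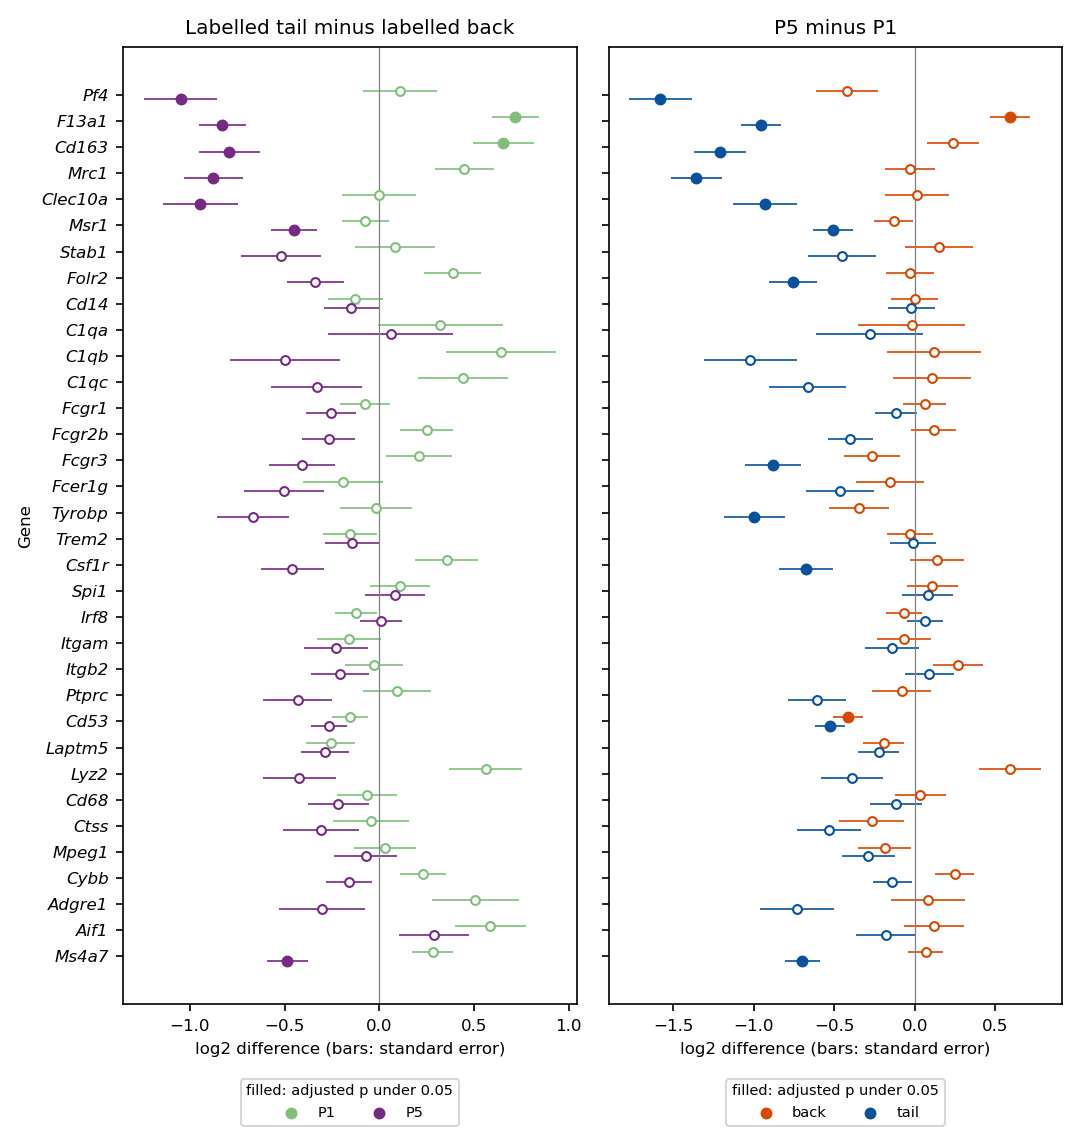
Log2 differences with their standard errors for the 34 genes, labelled tail minus labelled back at P1 and P5 (left) and P5 minus P1 in back and tail (right). Filled points are genes with an adjusted p under 0.05. The tail age differences lie left of 0 for 31 of 34 genes and reach -1.58 in Pf4, and the back age differences scatter around 0.

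Both secreted factors fell with age in tail. Pf4 encodes platelet factor 4, a chemokine made by megakaryocytes and also by resident macrophages. It was at 0.61, 0.28 and 0.15 in P1 Tail, -0.71, -1.60 and -1.40 in P5 Tail, 0.33, 0.12 and 0.26 in P1 Back, and -0.12, -0.31 and -0.13 in P5 Back. Every P5 Tail array lay below every other array, and the P5 Back arrays lay below the P1 arrays of both sites, which overlapped. Pf4 was 2.99-fold lower at P5 than at P1 in tail, by -1.58 on the log2 scale (SE, the standard error, 0.19, limma adjusted p = 0.000591), against -0.42 in back (SE 0.19, adjusted p = 0.37). At P5 it was 2.07-fold lower in tail than in back (log2 difference -1.05, SE 0.19, adjusted p = 0.0056). The interaction was -1.16 (limma adjusted p = 0.0402), and it passed in 7 of 20 alternatives, with adjusted p values between 0.00336 and 0.364. It was lost when any single array other than P5 Tail replicate 2 was left out, at -1.26 to -0.98 (adjusted p = 0.0536 to 0.109).

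F13a1 encodes the A chain of coagulation factor XIII, which cross-links fibrin and is abundant in resident macrophages of connective tissue. Its values were 0.69, 0.18 and 0.35 in P1 Tail, -0.53, -0.54 and -0.57 in P5 Tail, -0.33, -0.42 and -0.18 in P1 Back, and 0.22, 0.30 and 0.32 in P5 Back. No array of one site overlapped the other site at either age, and the order of the sites was opposite at P1 and P5. F13a1 was higher in tail by 0.72 at P1 (SE 0.12, limma adjusted p = 0.00498) and lower by 0.83 at P5 (log2 difference -0.83, adjusted p = 0.00145). With age it fell in tail by 0.96 (adjusted p = 0.000829) and rose in back by 0.59 (adjusted p = 0.0163). The interaction was -1.55 (SE 0.18, limma adjusted p = 0.000857), and it passed in all 20 alternatives, with adjusted p values from 3e-04 to 0.0487. The rise in back passed in 10 of 17 alternatives and was lost, for example, without P1 Back replicate 5 (0.54, adjusted p = 0.0835, range over the alternatives 0.00132 to 0.427), and also without P1 Back replicate 1 or P5 Back replicate 2 or 3.

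**Figure D3:**
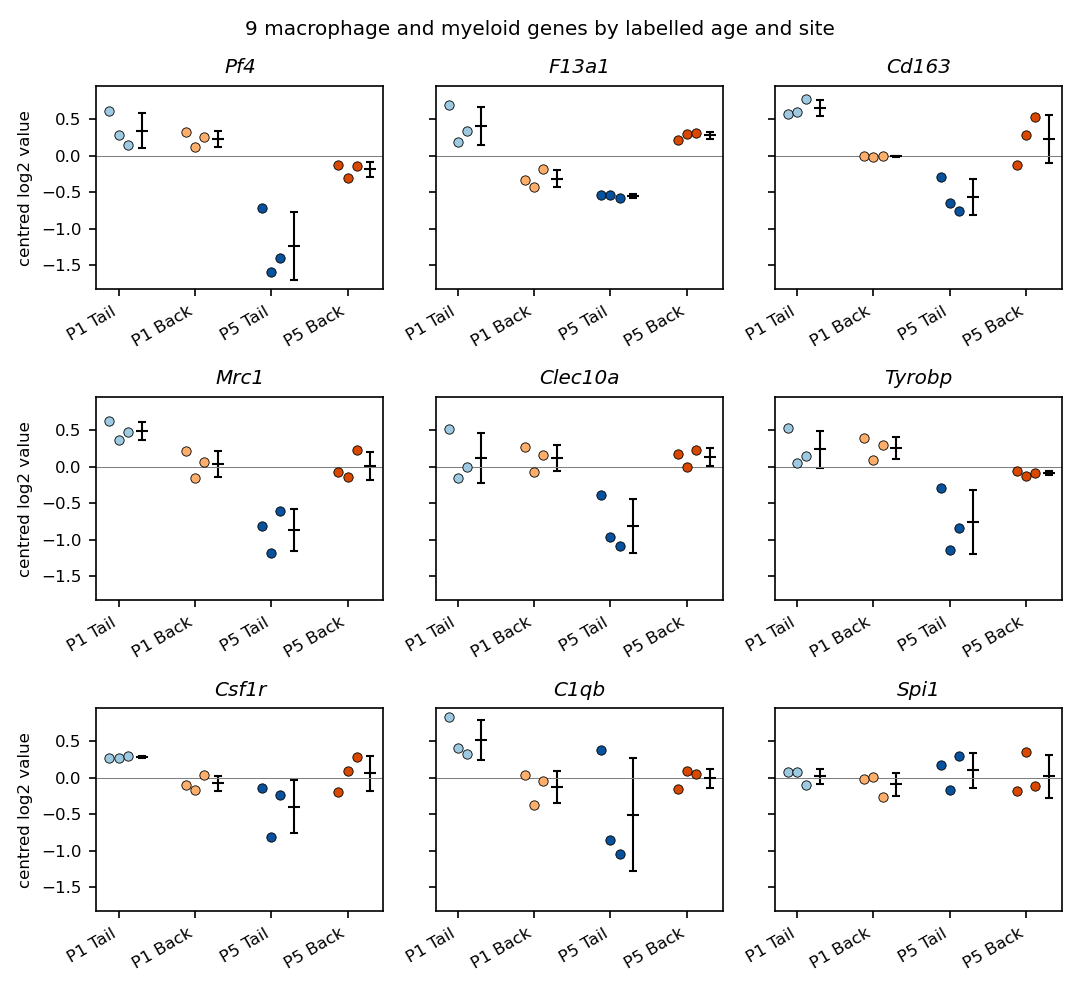
Centred log2 values of 9 genes on each array (points) by labelled group, with the group mean and SD (bars, n = 3 arrays). In Pf4, Mrc1, Clec10a and Tyrobp all 3 P5 Tail points lie below the other 9, in F13a1 the order of tail and back changes between P1 and P5, and Spi1 overlaps in all groups.

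Among the scavenger, lectin and endocytic receptors, 5 of 7 fell with age in tail and none rose (1.96% and 3.34% of all genes). At P5 4 of 7 were lower in tail than in back (2.61%). Cd163 is the scavenger receptor for haemoglobin bound to haptoglobin. It stood at 0.57, 0.61 and 0.77 in P1 Tail, -0.28, -0.64 and -0.76 in P5 Tail, -0.0028, -0.017 and 0.0028 in P1 Back, and -0.12, 0.28 and 0.53 in P5 Back. The P1 Tail arrays were the highest 3 of the 12 and the P5 Tail arrays the lowest 3. It fell by 1.21 with age in tail (SE 0.16, limma adjusted p = 0.000913), while the back difference was 0.24 (adjusted p = 0.66), and the interaction was -1.45 (adjusted p = 0.00483). Cd163 was higher in tail by 0.66 at P1 (SE 0.16, adjusted p = 0.0373) and lower at P5 (-0.79, adjusted p = 0.0093). The P1 call was lost when any 1 of the 6 P1 arrays was left out (0.59 to 0.70, adjusted p = 0.0686 to 0.167), and over all 17 alternatives its adjusted p ran from 0.000494 to 0.451.

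Mrc1 encodes the mannose receptor CD206, a marker of resident dermal macrophages. Its values were 0.62, 0.37 and 0.48 in P1 Tail, -0.81, -1.18 and -0.61 in P5 Tail, 0.21, -0.15 and 0.06 in P1 Back, and -0.06, -0.14 and 0.23 in P5 Back. P1 Tail lay above and P5 Tail below all 6 back arrays, which overlapped each other. Mrc1 was 2.56-fold lower at P5 than at P1 in tail (log2 difference -1.36, SE 0.16, limma adjusted p = 0.000409) and differed by -0.03 in back (95% interval -0.37 to 0.31). It was lower in tail at P5 by 1.84-fold (log2 difference -0.88, adjusted p = 0.0045), and the interaction was -1.32 (adjusted p = 0.0069).

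Clec10a, a lectin of macrophages and dendritic cells that binds galactose and N-acetylgalactosamine, was at 0.52, -0.15 and -0.0015 in P1 Tail and 0.27, -0.07 and 0.16 in P1 Back. At P5 it was at -0.38, -0.96 and -1.08 in Tail and 0.17, 0.0015 and 0.23 in Back. The P5 Tail arrays lay below the other 9, which overlapped. Clec10a fell in tail by 0.93 (SE 0.20, limma adjusted p = 0.0163) and was lower in tail at P5 (-0.94, adjusted p = 0.0115), and at P1 the sites differed by -0.0013 (95% interval -0.43 to 0.43). Without P1 Tail replicate 4 the fall was -0.73 and missed the threshold (adjusted p = 0.0712, range over 17 alternatives 0.00457 to 0.454), and without P5 Back replicate 3 the P5 difference was -0.90 (adjusted p = 0.0506, range 0.00276 to 0.252).

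Folr2, a folate receptor of resident macrophages, was at 0.39, 0.55 and 0.28 in P1 Tail, -0.08, -0.66 and -0.32 in P5 Tail, 0.23, -0.22 and 0.04 in P1 Back, and -0.05, 0.04 and -0.04 in P5 Back. The tail groups did not overlap, and it fell by 0.76 with age in tail (SE 0.15, limma adjusted p = 0.0113). Msr1, the class A scavenger receptor, was at 0.25, 0.15 and -0.11 in P1 Tail, -0.50, -0.54 and -0.20 in P5 Tail, 0.17, 0.09 and 0.24 in P1 Back, and 0.06, -0.06 and 0.11 in P5 Back. The P5 Tail arrays were again the lowest 3, with a fall of 0.51 with age (limma adjusted p = 0.0311) and a difference of -0.45 from back at P5 (adjusted p = 0.0457). The first call passed in 7 and the second in 6 of 17 alternatives (adjusted p = 0.00985 to 0.43, and 0.0133 to 0.299). The fall with age was lost without P1 Tail replicate 4 or 5 or P5 Tail replicate 2 or 3 (-0.48 to -0.43), and the P5 difference without P5 Tail replicate 2 or 3 or any P5 Back array (-0.50 to -0.39). Stab1, a scavenger receptor of macrophages and sinusoidal endothelium, was at 0.06, -1.03 and -0.45 in P5 Tail and passed no test, and Cd14, the co-receptor for lipopolysaccharide, differed by at most 0.15 in either direction in the 4 comparisons of groups.

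C1q starts the classical complement pathway and is made largely by macrophages. The 3 genes for its chains did not pass the test in any comparison. At an unadjusted p under 0.05, 1 was higher in tail at P1 (6.34% of all genes). With age in tail 2 were lower (8.83%), and 2 were below 0 for the interaction (6.01%). C1qb was at 0.83, 0.41 and 0.32 in P1 Tail, 0.38, -0.85 and -1.04 in P5 Tail, 0.05, -0.37 and -0.04 in P1 Back, and -0.15, 0.09 and 0.05 in P5 Back. C1qc was at 0.35, -0.88 and -0.55 in P5 Tail, and C1qa at 0.84, -0.86 and -0.08. All 3 genes were higher on P5 Tail replicate 2 than on replicates 3 and 4, and the P5 Tail arrays overlapped every other group. The tail age differences were -1.02 for C1qb (SE 0.29, limma adjusted p = 0.0637), -0.67 for C1qc and -0.28 for C1qa. Without P5 Tail replicate 2, C1qb and C1qc were called lower with age in tail, while C1qa was not. At P1 all 3 were above 0 in the difference of tail and back, by 0.32 to 0.64, with the arrays apart for C1qb and C1qc.

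Of the 6 Fc receptors and adaptors, 2 fell with age in tail (1.96% of all genes), and all 6 differences there were below 0 (42.8%). Tyrobp encodes DAP12, the adaptor through which TREM2 and other receptors signal. Its values were 0.53, 0.06 and 0.15 in P1 Tail, -0.28, -1.14 and -0.83 in P5 Tail, 0.40, 0.10 and 0.30 in P1 Back, and -0.06, -0.12 and -0.08 in P5 Back. The P5 Tail arrays lay below the P5 Back arrays, and these below all 6 P1 arrays. Tyrobp fell in tail by 1.00 (SE 0.19, limma adjusted p = 0.00857), and the difference of -0.67 from back at P5 missed the threshold (adjusted p = 0.0531). Fcgr3, an activating receptor for IgG, was at 0.66, 0.33 and 0.30 in P1 Tail, -0.11, -0.80 and -0.45 in P5 Tail, 0.48, 0.17 and 0.0032 in P1 Back, and -0.11, -0.02 and -0.0032 in P5 Back. The P5 Tail arrays lay below both P1 groups and met the P5 Back arrays at their upper end. It fell in tail by 0.88 (SE 0.17, limma adjusted p = 0.0106), and without P1 Tail replicate 4 the fall of 0.76 missed the threshold (adjusted p = 0.0559, range over 17 alternatives 0.00416 to 0.397).

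Fcer1g, the signalling chain shared by Fc receptors and also used by mast cells, was at -0.04, -0.94 and -0.42 in P5 Tail and differed by -0.47 with age in tail (limma adjusted p = 0.234). Fcgr2b, the inhibitory IgG receptor, differed by -0.40 (adjusted p = 0.13) with arrays that did not overlap, and Fcgr1, the receptor of high affinity for IgG, by -0.12. Trem2, a lipid-sensing receptor that signals through Tyrobp, differed by -0.01 (95% interval -0.32 to 0.30), and its correlation with the mean of the other members was below 0.

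Csf1r, the receptor for Csf1 and Il34, was at 0.276, 0.278 and 0.295 in P1 Tail, -0.14, -0.81 and -0.23 in P5 Tail, -0.09, -0.16 and 0.04 in P1 Back, and -0.20, 0.10 and 0.29 in P5 Back. The P1 Tail arrays lay close together and above the P1 Back arrays, while the P5 groups overlapped. Csf1r fell in tail by 0.68 (SE 0.17, limma adjusted p = 0.0341), a call that was lost without any 1 of the 3 P1 Tail arrays (-0.68 to -0.67, adjusted p = 0.0688 to 0.105, range over 17 alternatives 0.0232 to 0.444). Its 3 probe sets differed by -1.22, -0.54 and -0.27. Spi1, which encodes PU.1, was at 0.08, 0.08 and -0.09 in P1 Tail, 0.18, -0.17 and 0.30 in P5 Tail, -0.02, 0.02 and -0.26 in P1 Back, and -0.18, 0.35 and -0.12 in P5 Back. All 4 groups overlapped, and the tail age difference was 0.08 (95% interval -0.26 to 0.42). Irf8, a transcription factor of monocytes and dendritic cells, varied least of the members, over a range of 0.37, and differed by 0.06 with age in tail (95% interval -0.18 to 0.30).

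Among the integrins and leukocyte membrane proteins, Cd53, a tetraspanin of white blood cells, fell with age at both sites. It was at 0.10, 0.19 and 0.03 in P1 Tail, -0.35, -0.54 and -0.37 in P5 Tail, 0.28, 0.26 and 0.25 in P1 Back, and -0.22, -0.15 and -0.10 in P5 Back. All P5 arrays lay below all P1 arrays, and tail lay below back at each age. The fall was 0.53 in tail (SE 0.09, limma adjusted p = 0.00558) and 0.42 in back (adjusted p = 0.0231), with an interaction of -0.11 (95% interval -0.40 to 0.17). The call in back was lost without any 1 of the 6 back arrays (-0.44 to -0.39, adjusted p = 0.0553 to 0.097, range over 17 alternatives 0.000294 to 0.725). Ptprc, the pan-leukocyte marker CD45, was at -0.86, 0.06 and -0.42 in P5 Tail and differed by -0.61 with age (adjusted p = 0.0763). Itgam and Itgb2, the chains of the integrin CD11b/CD18, differed by -0.14 and 0.09 and were not called in any comparison, nor was the lysosomal membrane protein gene Laptm5.

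None of the 5 lysosome, oxidase and antimicrobial genes was called by limma. At an unadjusted p under 0.05, 1 was higher in tail at P1 (6.34% of all genes) and 1 lower in tail at P5 (9.64%). With age 1 was higher in back (6.62%) and 1 lower in tail (8.83%), and 2 were below 0 for the interaction (6.01%). Lyz2, lysozyme of myeloid cells, was at 0.48, -0.00083 and 0.02 in P1 Tail, 0.22, -0.59 and -0.31 in P5 Tail, -0.23, -0.43 and -0.53 in P1 Back, and 0.00083, 0.29 and 0.30 in P5 Back. The P1 Back arrays lay below the P1 Tail and the P5 Back arrays, with differences of 0.56 (tail minus back at P1, limma adjusted p = 0.165) and 0.59 (back with age, adjusted p = 0.137). Cd68, a lysosomal glycoprotein used as a macrophage marker, differed by -0.12 with age in tail (95% interval -0.46 to 0.23). Ctss, cathepsin S, differed by -0.53 (adjusted p = 0.15), Mpeg1, perforin-2, by -0.29 and Cybb, the catalytic subunit of the phagocyte NADPH oxidase, by -0.14.

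Of the other macrophage markers, Ms4a7, a membrane protein of resident macrophages, was at 0.31, 0.41 and 0.12 in P1 Tail, -0.29, -0.46 and -0.51 in P5 Tail, 0.07, -0.06 and -0.01 in P1 Back, and 0.10, -0.05 and 0.16 in P5 Back. P1 Tail was above and P5 Tail below the back arrays of the same age. It fell in tail by 0.70 (SE 0.11, limma adjusted p = 0.00268), was lower in tail at P5 (-0.49, adjusted p = 0.0165), and had an interaction of -0.77 (adjusted p = 0.0184). Fitted by probe set, 1 of its 2 probe sets was called in these comparisons (-1.19, -0.85 and -1.20). The other was not, at -0.21, -0.12 and -0.34 (limma adjusted p = 0.453, 0.684 and 0.503). The P5 difference was lost without P5 Back replicate 1 (-0.47, adjusted p = 0.0661) or replicate 3 (-0.44, adjusted p = 0.0745), with a range over 17 alternatives of 0.00609 to 0.192, and the interaction was lost without P1 Back replicate 5 or 6 or P5 Back replicate 1 or 3 (-0.76 to -0.72, adjusted p = 0.0524 to 0.0623, range over 20 alternatives 0.0119 to 0.301). Adgre1, which encodes F4/80, was at 0.67, 0.46 and 0.20 in P1 Tail and 0.09, -0.56 and -0.40 in P5 Tail, which did not overlap, and its difference of -0.73 was not called (adjusted p = 0.0905). Aif1, the actin-binding protein IBA1, was the exception at P5, where its tail arrays (0.18, 0.22 and 0.11) lay above its back arrays (-0.27, -0.12 and 0.02), by 0.29 (adjusted p = 0.424).

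At the median, though not in every case, the members varied more over the arrays than all genes did. Their range over the 12 arrays was between 0.37 and 2.21 with a median of 1.10, against a median of 0.67 for all genes. Across the 12 arrays, 23 of 34 had a correlation above 0.5 with the mean of the other 33 members, and 2 had one below 0, Trem2 and Irf8. The correlation was highest in Folr2 and Fcgr3, at 0.92 each, followed by Pf4, Tyrobp, Mrc1 and Ms4a7 at 0.90 to 0.91, and was 0.01 in Spi1 and Itgam. After the group means were taken out, 19 of 34 were still above 0.5, with Stab1 at 0.94 and Fcer1g at 0.91, and Itgam and Ptprc at -0.62 and -0.61. The points share the same 12 arrays and their normalisation, and the correlations are descriptions.

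Probe sets of one gene did not always move together. Fitted by probe set, 16 of the 57 fell with age in tail (1.35% of all probe sets fell), 8 were lower in tail at P5 (1.82%), and none moved the other way. In this fit C1qb, Fcgr2b, Laptm5 and Ptprc had a called probe set with age in tail, although their mean over probe sets was not called. At P5 the same held for Cd53 and Laptm5, and for the interaction for Fcgr2b. In turn, none of the 4 Msr1 probe sets was called with age in tail (adjusted p = 0.0997 to 0.541) or at P5 (0.0607 to 0.487). Cd163 at P1 (adjusted p = 0.057), Cd53 with age in back (0.0779 and 0.387) and Pf4 for the interaction (0.0606) were not called by probe set either. In C1qb, 2 probe sets differed by -1.14 and -1.22 and the other by -0.70. In Fcgr2b, 1 of 5 differed by -1.20, and the rest lay between -0.50 and 0.34. Of 12 members with more than 1 probe set, 4 had probe sets of opposite sign for this comparison.

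Other macrophage genes were read from separate lists. Of 26 further genes of resident dermal macrophages, 7 fell with age in tail and none rose (1.96% and 3.34% of all genes). At P5 3 were lower in tail (2.61%), and at P1 1 was higher (2.06%). With age in back 2 rose and 1, Hpgds, fell (2.22% and 2.03%). Hpgds fell at both sites, with log2 differences of -0.83 in tail and -0.78 in back. Igf1, a growth factor that macrophages and fibroblasts both make, was at 1.02, 0.19 and 0.47 in P1 Tail and -0.78, -0.998 and -0.93 in P5 Tail, a fall of 1.46 (SE 0.24, limma adjusted p = 0.00389). C3ar1 and C5ar1, receptors for the complement fragments C3a and C5a, fell by 1.04 and 0.81 in tail and were lower in tail at P5 by 0.66 and 0.67 (log2 differences of -0.66 and -0.67). Maf, a transcription factor of resident macrophages and other cells, went its own way, being lowest in P1 Back (-0.75, -0.97 and -0.84 against -0.13 to 0.21 on the other 9 arrays). Lyve1, a marker of dermal macrophages near vessels and of lymphatic endothelium, differed by -0.14 with age in tail (adjusted p = 0.74), Cx3cr1, the fractalkine receptor, by 0.12, and Ccr2, a chemokine receptor of monocytes, by -0.08.

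The ligands of Csf1r were not called. Csf1 differed by -0.33 with age in tail (limma adjusted p = 0.105) and Il34 by 0.43 (adjusted p = 0.109). Of the 9 growth factors and receptors, Csf2rb, the beta chain of the receptors for GM-CSF, IL-3 and IL-5, fell by 0.72 in tail (adjusted p = 0.00921) and was lower in tail at P5 (-0.54, adjusted p = 0.0339). Of 18 pattern recognition receptors, 3 fell with age in tail and none rose (Clec4a3, Cd36 and Tlr4), where 1.96% of all genes fell and 3.34% rose. In all, 7 of the 18 were below 0 (42.8% of all genes), with a median of 0.02 against 0.04 over all genes. Clec4a3, a lectin of myeloid cells and the largest call in the list, had values of 0.87, 0.98 and 0.63 in P1 Tail, -0.61, -0.14 and -0.55 in P5 Tail, -0.05, -0.31 and 0.03 in P1 Back, and 0.28, -0.03 and 0.26 in P5 Back. As in F13a1, tail lay above back at P1 and below it at P5, with an interaction of -1.54 (SE 0.21, limma adjusted p = 0.00245). Of 31 genes of phagocyte signalling and the NADPH oxidase, 3 fell with age in tail (Plek by 0.99, Ly86 by 0.60 and Fyb by 0.46) and Plcg2 rose by 1.17 (1.96% and 3.34% of all genes).

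Of 16 inflammatory activation genes, 7 fell from P1 to P5 in back (2.03% of all genes), with Il6 at -1.90 and the neutrophil chemokine Cxcl1 at -1.64. In tail 3 of them fell (1.96%), with Cxcl1 at -1.59. None of the 16 was called for the interaction by limma, with a median of 0.06. At an unadjusted p under 0.05, 3 were above 0 and 0 below (8.36% and 6.01% of all genes). At P1, Ccl7, Tnf and Il1b were lower in tail (-1.11, -0.65 and -0.52), where 1.91% of all genes were lower. Of 18 genes known to respond to tissue dissociation, 13 fell with age in back (2.03% of all genes). Against back, 6 were lower in tail at P1 (1.91%) and 7 higher at P5 (4.30%). The part of the dissociation response in the inflammatory genes was not tested. Of 20 lysosome and phagocytosis genes, 3 rose with age in tail, namely Apoe (1.93), Ctsd (0.93) and Ctsb (0.50), and Cd36 fell by 0.66 (3.34% and 1.96% of all genes), so that this list did not follow the members. Of 11 osteoclast genes, Acp5 and Nfatc1 rose with age in tail (3.34% of all genes), and Arg1, among 12 alternative activation genes, rose with age in back by 1.63 (2.22%).

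Markers of other cell types moved with the members in part, and their part in the member differences was not tested. The mean of the 10 mast cell markers lay between -1.26 and -0.95 on P5 Tail arrays and between 0.09 and 0.19 on P5 Back arrays. At P5, 8 of the 10 were lower in tail (2.61% of all genes), and 5 fell with age in tail (1.96%), with Cpa3, a mast cell protease, at -1.61. At P1 6 of 10 mast cell markers were already lower in tail (1.91% of all genes), where F13a1 and Cd163 were higher. Fcer1g, Csf2rb and Hpgds are also expressed by mast cells.

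Of 17 MHC class II and dendritic genes, Cd74 (0.92), Epcam (0.66) and H2-Eb1 (0.54) rose with age in tail and none fell (3.34% and 1.96% of all genes). Of 12 T and NK cell markers, Cd3g (1.68) and Cd3d (0.52) rose with age in tail (3.34%). None of the 13 neutrophil, 6 B cell or 12 endothelium markers was called in any comparison by limma. At an unadjusted p under 0.05, 4 endothelium and 2 neutrophil markers were lower in tail at P5 and none was higher. With age in tail 3 endothelium markers and 1 neutrophil marker were lower and 1 neutrophil marker higher, at P1 2 neutrophil markers were lower and 1 endothelium marker higher in tail, and in back 1 neutrophil marker was higher. For the interaction 1 endothelium marker was below 0, and no B cell marker passed in any of these. Of all genes, 6.01% to 11.8% passed at this p in each direction of each comparison. Keratinocyte markers differed between groups, with 3 of 11 higher with age in tail and 7 of 11 lower with age in back (3.34% and 2.03% of all genes). Their mean spanned -1.17 to 0.08 on P1 Tail arrays. Fibroblast markers, which stand for the main cell type of dermis, had array means between -0.26 and 0.21. With age in tail 1 of 12 fell (Dlk1, -1.74), against 1.96% of all genes. At P5, 5 fibroblast markers were higher and 1 lower in tail (4.30% and 2.61% of all genes). Adipocyte markers fell with age in tail (6 of 8, against 1.96% of all genes), rose with age in back (5 of 8, against 2.22%) and were all higher in tail at P1 (2.06%). For the interaction 7 of 8 were called below 0 (0.940% of all genes), with a median of -2.10, the direction in which 5 members were called. Other lists went the opposite way. For the interaction 12 of 18 dissociation response genes and 5 of 11 keratinocyte markers were called above 0 (1.93% of all genes), with medians of 1.55 and 1.76.

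All 10 skeletal muscle markers were below 0 with age in tail, with a median of -1.85, larger than the -0.49 of the members. In 7 of the 10 the P5 arrays of tail lay wholly below the P1 arrays (8.34% of all genes). At an unadjusted p under 0.05, 6 were lower (8.83%). Tnni2, a troponin of fast muscle, was called (-1.23, limma adjusted p = 0.048). Their array means lay between 0.54 and 1.97 in P1 Tail, -0.87 and -0.30 in P5 Tail, -1.83 and 0.79 in P1 Back, and -1.83 and 1.26 in P5 Back. The back arrays thus spanned the P5 Tail group and overlapped the P1 Tail group. P1 Tail replicate 4, at 1.97, lay above all back arrays. Of 4 erythroid markers, Slc4a1 rose with age in tail (0.74). Of 12 cartilage markers, 4 were lower in tail at P1, and Sox9, which hair follicles also express, was higher in tail at P5 (1.05) and rose with age in tail (0.71). Of 13 monocyte genes, Cd300a fell with age in tail (-0.50). Nr4a1, which is also a dissociation response gene, fell with age in back (-1.86). At P1 2 of the 13 were lower in tail and 0 higher (1.91% and 2.06% of all genes). At P5 1 was higher and 1 lower in tail (4.30% and 2.61%), and 1 was above 0 for the interaction (1.93%).

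**Figure D4:**
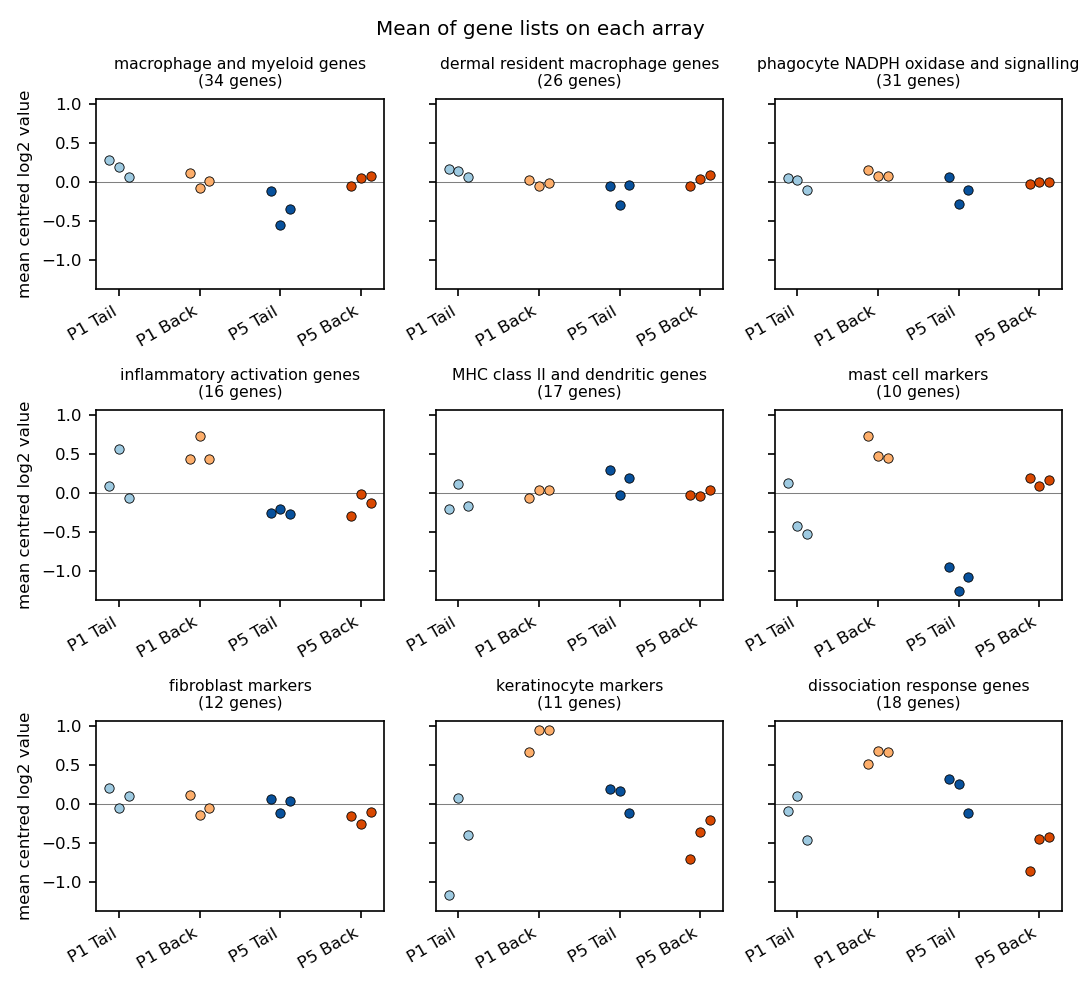
Mean centred log2 value of 9 lists of genes on each array (points), by labelled group. The mean of the 34 macrophage and myeloid genes is lowest on the 3 P5 Tail arrays, as is that of the mast cell markers, while the keratinocyte and dissociation response means are highest in P1 Back.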

How the data were processed

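RNA of dermis was hybridised to 12 Affymetrix MG430.2A arrays of 1 colour, each counted as 1 mouse. The labels do not say whether tail and back of an age came from the same mice. RMA normalisation in GeneSpring had been carried out by the authors, and the deposited values were read as log2 values, the usual scale of RMA, since no log base comes with them. Each of the 45101 probe sets had a median over the 12 arrays of 0 within 1e-06, a centring that the methods do not describe. The 12 array medians ranged from -0.02 to 0.01, so the values were used without another normalisation. Signal over background cannot be given, and 3 arrays per group limit the precision.

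After 64 control probe sets were left out, 45037 remained, of which the platform annotation gave 34945 a single gene symbol, 932 several and 9160 none. The probe sets with 1 symbol were averaged into 18193 genes (34741 of these probe sets matched mouse RefSeq genes). All 12 arrays were fitted in 4 groups with limma 3.58.1 (lmFit, eBayes) in R 4.3.3, with Benjamini-Hochberg adjustment over all genes and a threshold of 0.05. A negative difference means lower in the arrays labelled tail, or lower at P5. Values on every array are given for called members among the 8 largest differences of a comparison and for further members of the receptor, complement and transcription factor groups, and for Lyz2, chosen after its values were seen. In other lists at most 4 of the largest called genes are named per comparison, with Csf1, Il34, Lyve1, Ccr2 and Cx3cr1 whatever their values. The 34 members and the 25 lists (354 of 392 genes measured) were chosen with earlier results of these data known. The fit was tested on simulated data. The alternatives were centring each array, each array left out, array weights, robust variances, fits of only the groups compared, the replicate number as a fixed or random block, probe sets of shared sequence left out, the median of probe sets, and the methods' t-test. A further one, added after seeing the data, left out 3 arrays with high cartilage markers.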

Additional observations from a re-analysis of the deposited data

Results flagged for a closer look

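For 5 of the 34 genes the change from P1 to P5 differed between arrays labelled tail and arrays labelled back, by the interaction of site and age in limma, adjusted over all genes. The interaction, the tail change minus the back change on the log2 scale, was -1.55 in F13a1 (adjusted p = 0.000857), -1.45 in Cd163 (0.00483), -1.32 in Mrc1 (0.0069), -1.16 in Pf4 (0.0402) and -0.77 in Ms4a7 (0.0184). In F13a1, Cd163, Mrc1 and Ms4a7 all 3 P1 Tail arrays lay above all 3 P1 Back arrays and all 3 P5 Tail arrays below all 3 P5 Back arrays. In Pf4 the P1 groups overlapped, and in Ms4a7 1 of its 2 probe sets was called for the interaction.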

How the results depend on the processing

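No called difference of a member changed sign under any alternative. Array weights called 11 members at P1, 4 in back with age and 10 for the interaction (main counts 2, 2 and 5), where 20.1%, 11.7% and 4.22% of all genes were called. Fitting only the groups compared called 4 at P1, 4 at P5, 4 in back with age and 5 in tail with age (main counts 2, 7, 2 and 12), where 5.12%, 3.92%, 8.39% and 1.73% of all genes were called. The methods' t-test, unadjusted, called 11 members at P1, 9 at P5, 6 in back and 13 in tail. Of all genes, 20.1%, 12.6%, 19.8% and 10.1% were called there. After Benjamini-Hochberg adjustment it called 0 members at P1, 1 at P5, 0 in back and 0 in tail. Of all genes, 0.033%, 0.132%, 0.055% and 0% were then called, so almost no gene could pass. Without the 3 arrays with high cartilage markers, chosen after seeing the data, P1 Back holds 1 array, assumed to vary like the other groups, and 0 members were called at P1 (median difference 0.24), 1 at P5, 0 in back, 9 in tail and 1 for the interaction (median difference -0.55).

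With 1 array left out in turn, the count lay between 1 and 2 at P1, 4 and 12 at P5, 0 and 1 in back, 8 and 15 in tail, and 3 and 13 for the interaction. The share of all genes called in these fits was 2.12% to 4.34% at P1 and 4.05% to 11.7% at P5. It was 2.08% to 2.91% in back, 2.59% to 9.26% in tail and 1.31% to 4.02% for the interaction. The median difference of the members lay between -0.65 and -0.38 in tail and between -0.60 and -0.32 for the interaction, the lower ends without P5 Tail replicate 2, which also gave the highest counts at P5, in tail and for the interaction. Tail and back share replicate numbers 5 and 6 at P1 and 2 and 3 at P5. With group means taken out, same-numbered arrays correlated at 0.26, -0.01, 0.17 and -0.02. Arrays of unlike number correlated at -0.34 to 0.38 at P1 and -0.13 to 0.09 at P5. So few values cannot show whether the numbers are pairs, and the main fit did not use them as pairs. As a fixed replicate block, the number tied all arrays that share it, also arrays of unlike age, so site and age differences both drew on it. In that fit 16 of 28 called differences passed, 1 member was called at P1 and 0 in back (3.16% and 1.57% of all genes), and the median in tail was -0.65. With the number within each age as a random block (consensus correlation 0.14) all 28 passed. The methods' filter on the 20% of genes of lowest expression could not be run on centred values.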
